A study of Mus musculus with 6 samples.

Results

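The muscarinic acetylcholine receptors are the G protein-coupled receptors for acetylcholine, and the mouse has 5 of them, encoded by Chrm1 to Chrm5. They were chosen by gene symbol, as the 5 features among the 60354 in the count files whose Ensembl identifiers carry these names in GENCODE M21. All 5 were present and all 5 had enough counts to be tested. Expression was measured by RNA-seq in whole brains of male C57BL/6NCrSlc mice, which entered the study at 16 weeks of age. The 3 control mice (mice 2, 5 and 10) had been fed a modified AIN-93M diet without PLDP, the protease-treated porcine liver decomposition product, for 16 weeks, and the 3 PLDP mice (mice 17, 22 and 26) an AIN-93M diet of matched calories with 20% PLDP for the same time. Both groups then went through the same series of behavioral tests, during which no PLDP was fed, and RNA was taken the day after the last test. Each value is thus from the brain of 1 mouse, with all regions mixed. The diets also differed in casein and other additives, which cannot be told apart from PLDP itself.

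Acetylcholine reaches these receptors from cholinergic neurons of the basal forebrain, brainstem and striatum. Chrm1, Chrm3 and Chrm5 encode receptors that couple to Gq and activate phospholipase C, which raises calcium and closes M-type potassium channels. Chrm2 and Chrm4 encode receptors that couple to Gi/o, lower cyclic AMP and open G protein-gated potassium channels, and they also act as autoreceptors that limit acetylcholine release. Chrm1 is best known from cortex, hippocampus and striatum, where it is studied for its part in memory. Chrm4 is known from striatal projection neurons, Chrm2 from brainstem, thalamus and basal forebrain, Chrm3 from cortex, hippocampus and smooth muscle, and Chrm5 from midbrain dopamine neurons.

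The 5 genes are close relatives, so their sequences were compared to see whether reads could be told apart. The stretch shown is the 60-base window of the coding sequence in which most positions were identical in all members (43 of 60). The sequences are from GENCODE M21 transcripts, written in the direction of transcription, with capitals for bases that all 5 genes share.
Chrm1: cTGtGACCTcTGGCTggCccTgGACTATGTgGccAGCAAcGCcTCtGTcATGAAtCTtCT
Chrm2: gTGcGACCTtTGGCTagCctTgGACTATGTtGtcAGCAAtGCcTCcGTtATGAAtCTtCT
Chrm3: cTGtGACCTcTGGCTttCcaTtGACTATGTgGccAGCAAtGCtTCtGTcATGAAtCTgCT
Chrm4: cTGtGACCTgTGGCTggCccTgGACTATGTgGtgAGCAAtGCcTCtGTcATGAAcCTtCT
Chrm5: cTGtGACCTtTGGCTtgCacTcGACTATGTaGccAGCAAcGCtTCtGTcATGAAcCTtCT
These windows lie at chr19:8678223-8678282 (plus strand), chr6:36523494-36523553 (plus strand), chr13:9878523-9878582 (minus strand), chr2:91927557-91927616 (plus strand) and chr2:112480405-112480464 (minus strand) of GRCm38. Even in this most conserved stretch, 17 of 60 positions differed in at least 1 member, and over the whole alignment 37.7% of the 1176 positions without a gap were identical in all 5. Between pairs of members that couple to Gq, coding identity was 58.5% to 64.6%, and it was 62.9% between Chrm2 and Chrm4. Pairs from different coupling classes shared between 54.3% and 58.8%. The longest run that any pair of members had in common was 29 bases, between Chrm1 and Chrm4. No 50-base stretch was shared between members, and 100% of the 50-base stretches of Chrm3, Chrm4 and Chrm5 occurred in no other annotated gene on either strand. For Chrm2 this share was 98.6%, with the rest shared with 9330158H04Rik, a noncoding RNA on the opposite strand that had 29 to 43 counts per mouse. For Chrm1 it was 95.7%, with the rest shared with Gm22820 on the opposite strand, which had at most 1 count.

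In each member the whole coding sequence lies in 1 exon, while the annotated gene models differ in what surrounds it. Chrm1 (ENSMUSG00000032773) covers chromosome 19 from 8663789 to 8683587 on the plus strand, with 6487 bases of exon. Chrm2 (ENSMUSG00000045613) covers chromosome 6 from 36388084 to 36528414 on the plus strand, with 6053 bases of exon. Chrm3 (ENSMUSG00000046159) covers chromosome 13 from 9875486 to 10360847 on the minus strand, with 6253 bases of exon. Chrm4 (ENSMUSG00000040495, chromosome 2 from 91927249 to 91928688, plus strand) and Chrm5 (ENSMUSG00000074939, chromosome 2 from 112479171 to 112480769, minus strand) are annotated as coding sequence alone, 1440 and 1599 bases long. Reads from untranslated parts of their transcripts have no place in these models.

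Counts on features summed to between 18797061 and 23938729 per mouse. PLDP mouse 17 stood apart from the other PLDP mice, with a chi-square per degree of freedom of 5.03 and 5.33 against them, while the other pairs within a diet had 2.36 to 3.12, where 1 is counting noise. All pairs thus differed by more than counting noise, and each mouse was used as 1 replicate. Of 18580 features tested with edgeR's quasi-likelihood test, 913 had a higher and 685 a lower level with PLDP (unadjusted p under 0.05), and 6 passed 0.05 after Benjamini-Hochberg adjustment. Markers of neurons, astrocytes and oligodendrocytes had summed levels of 743 to 772, 291 to 327 and 603 to 695 RPKM in all mice, as whole brain should show.

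Chrm1 and Chrm4 were the muscarinic receptor genes with the highest levels and Chrm5 the one with the lowest. Levels between genes are compared as RPKM, that is CPM (counts relative to the library total, after edgeR's TMM scaling) per kilobase of annotated exon. Over all 6 mice, Chrm4 had a mean of 28.0 RPKM, Chrm1 18.0, Chrm3 4.95, Chrm2 3.96 and Chrm5 0.955. Each gene's lowest mouse was above the next gene's highest mouse. The closest neighbours were Chrm3, at 4.68 to 5.19 RPKM, and Chrm2, at 3.14 to 4.41 RPKM. Chrm1 was thus above 82.2% and Chrm4 above 88.8% of the 17905 tested genes with an annotated length, and Chrm5 above 21.1%. The order of Chrm1 and Chrm4 depended on the gene model. With the length of the shortest transcript that holds the whole coding sequence, 4159 bases for Chrm1, its mean was 28.0 RPKM, the same as that of Chrm4. Chrm3 moved most, to 7.13 RPKM with its longest transcript and 17.5 with its shortest full-coding one. Chrm3, Chrm2 and Chrm5 kept their order under all 3 choices.

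**Figure D1:**
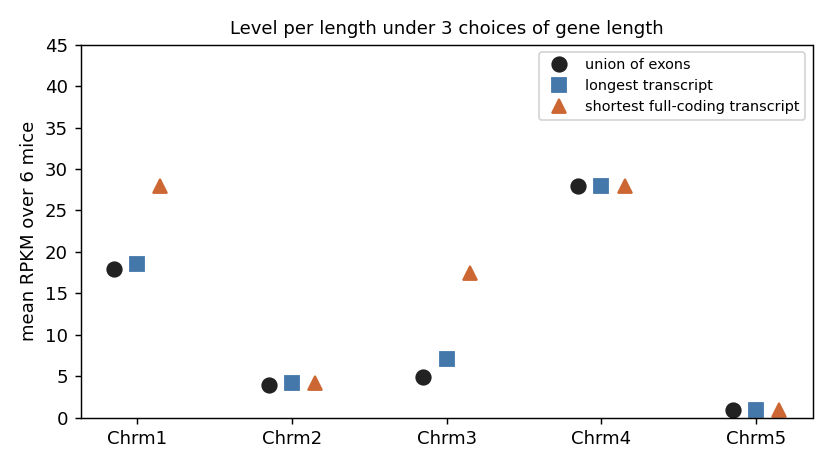
Mean RPKM of the 5 muscarinic receptor genes over 6 mice, with gene length taken as the union of exons (black circles), the longest transcript (blue squares) or the shortest transcript with the whole coding sequence (orange triangles). Chrm4 and Chrm5 have 1 model and do not move, Chrm1 rises from 18.0 to 28.0 and Chrm3 from 4.95 to 17.5.

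Chrm1 was the only member called between the diets, and it was slightly higher in the PLDP mice. With an unadjusted p under 0.05 in edgeR's test as the threshold, 1 of the 5 members was called, beside 8.6% of all features tested. The groups did not overlap for 1 of the 5 members, beside 14.2% of all features (7.29% with PLDP above and 6.9% with PLDP below). After adjustment over all features no member passed 0.05 in edgeR's test, and 0.0323% of all features did. Fewer cells of a type and less RNA per cell cannot be told apart in these whole-brain samples.

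Chrm1, the most studied of the Gq-coupled receptors in memory research, had 110.2, 112.2 and 111.1 CPM in control mice 2, 5 and 10, and 118.9, 124.1 and 122.4 CPM in PLDP mice 17, 22 and 26. All 3 PLDP mice were above all 3 control mice. The means were 111.1 ± 0.99 and 121.8 ± 2.67 CPM (SD, n = 3 each), and the log2 fold change was 0.13 (standard error, SE, 0.04, unadjusted p = 0.00594, adjusted p = 0.357 by the quasi-likelihood test of edgeR). The 95% confidence interval of the fold was 1.03 to 1.17, so the difference was small in size. By unadjusted p, Chrm1 was number 309 of the 18580 features. The control mice varied by 0.887% (coefficient of variation), less than the 2.06% that counting alone gives at a depth of 2294 to 2476 counts, and the PLDP mice by 2.19% with 1.96% from counting. The unadjusted p stayed under 0.05 without any single mouse, between 0.00141 and 0.0310 in edgeR's test, and the adjusted p ranged from 0.0890 to 0.821 over all alternatives.

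Chrm3, which also couples to Gq, had 32.1, 30.2 and 32.2 CPM in the control mice, against 29.4, 29.3 and 32.4 CPM in the PLDP mice. PLDP mouse 26 was the highest of all 6 mice and the other 2 PLDP mice were the lowest, so the groups overlapped. Its log2 fold change came to -0.05 (SE 0.06, 95% interval -0.19 to 0.08, adjusted p = 0.871 by the quasi-likelihood test of edgeR). As a fold, the interval ran from 0.876 to 1.06.

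Chrm5, the Gq-coupled receptor of dopamine neurons, had few counts, with 43, 23 and 33 counts in the control mice, against 39, 39 and 19 in the PLDP mice. These are 2.07, 1.04 and 1.598 CPM against 1.81, 1.63 and 1.01 CPM. Control mouse 5 and PLDP mouse 26 were low and the groups overlapped widely. The log2 fold change was -0.05 (SE 0.28, adjusted p = 0.975 by the quasi-likelihood test of edgeR). Its 95% interval reached from 0.641-fold to 1.45-fold, so changes within these bounds could not be told from none with these mice. The coefficient of variation was 32.7% in the control mice, against 28.1% in the PLDP mice, where counting alone gives 17.4% and 17.6%. The sign of the difference turned when control mouse 2 or PLDP mouse 26 was left out.

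Chrm4, the Gi/o-coupled receptor of striatal projection neurons, had 39.4, 37.4 and 40.6 CPM in the control mice, against 42.4, 40.4 and 41.3 CPM in the PLDP mice. The groups touched, since PLDP mouse 22 was just below control mouse 10. The log2 fold change was 0.08 (SE 0.06, 95% interval -0.04 to 0.20, unadjusted p = 0.176, adjusted p = 0.739 by the quasi-likelihood test of edgeR). It was positive without any single mouse, between 0.05 and 0.11, and was called in none of these fits.

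Chrm2, the Gi/o-coupled receptor known as an autoreceptor and from the heart, had 25.2, 25.5 and 24.3 CPM in the control mice, against 18.99, 26.7 and 23.4 CPM in the PLDP mice. The control mice were close to each other and the PLDP mice were not, with PLDP mouse 17 the lowest and PLDP mouse 22 the highest of all 6. The coefficient of variation was 2.501% in the control mice, against 16.7% in the PLDP mice, beside 4.35% and 4.50% from counting. The log2 fold change was -0.11 (SE 0.09, 95% interval -0.31 to 0.08, adjusted p = 0.784 by the quasi-likelihood test of edgeR). Single mice decided this value. It was 0.0091 without PLDP mouse 17, the mouse that stood apart over all genes, and -0.24 without PLDP mouse 22 (unadjusted p = 0.0155, adjusted p = 0.502 from the same test).

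**Figure D2:**
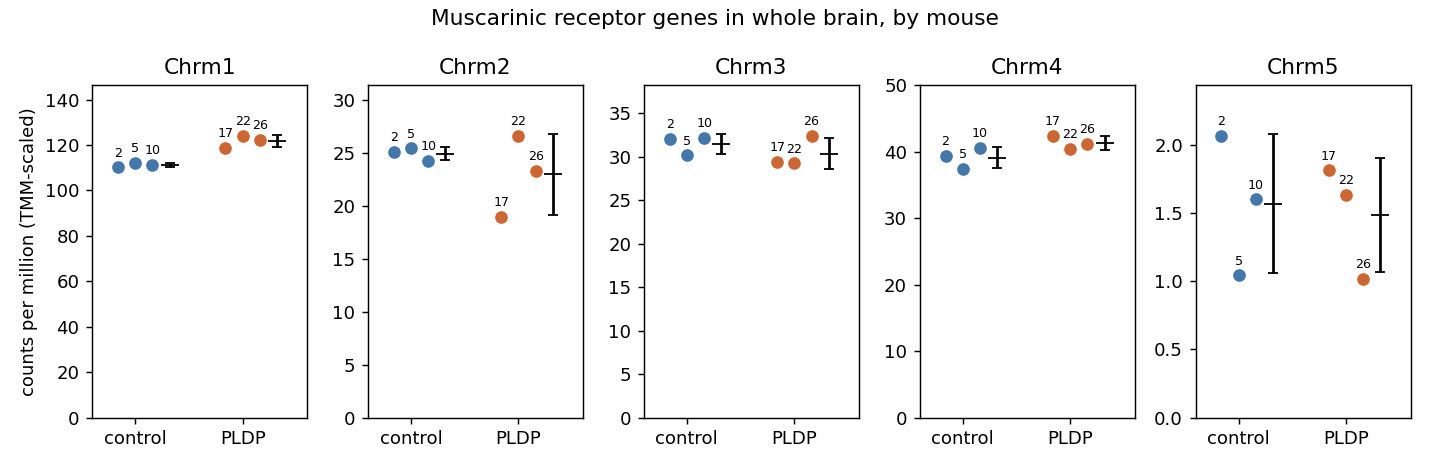
CPM of the 5 muscarinic receptor genes in each mouse (blue, control; orange, PLDP; numbers are mouse numbers), with the mean and SD of 3 mice beside each group. The groups separate for Chrm1 alone, with 110.2 to 112.2 CPM in control and 118.9 to 124.1 CPM in PLDP mice, and PLDP mouse 17 is low for Chrm2.

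**Figure D3:**
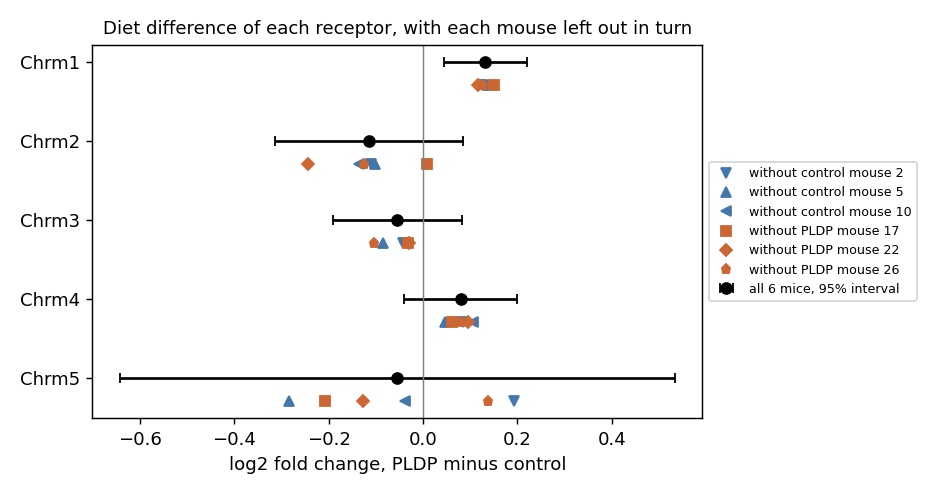
Log2 fold change of each member between the diets with its 95% interval (black, all 6 mice) and the values with each mouse left out (blue, a control mouse; orange, a PLDP mouse). Chrm1 stays between 0.12 and 0.15, Chrm2 moves between -0.24 and 0.0091, and Chrm5 lies on either side of 0.

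Within the family, the level per length summed over the 5 members was 55.0, 53.0 and 55.5 RPKM in the control mice, against 56.8, 57.3 and 57.2 RPKM in the PLDP mice. The PLDP mice were all above the control mice (p = 0.1, two-sided exact permutation test, n = 3 each, for which no smaller p is possible). Chrm1 and Chrm4 made up most of this sum. The share of the Gi/o-coupled members in it was 57.4%, 57.0% and 58.0% in the control mice, against 57.4%, 56.7% and 56.8% in the PLDP mice (p = 0.3, same exact test). These overlap, as they did with both other transcript lengths, but the share itself depended on the gene model. With the shortest full-coding transcript it was 40.9%, 40.6% and 41.4% in the control mice, against 41.5%, 40.9% and 40.4% in the PLDP mice. The groups separated when CPM was used without a length. The share was then 30.9%, 30.5% and 30.9% with the control diet and 29.0%, 30.2% and 29.3% with PLDP. Ratios within a mouse do not depend on the scaling of libraries, and all 10 pairs of members were computed, after the members' values had been seen. In 3 of them the groups did not overlap. The share of 14.2% given above is for single features, and no such share was computed for ratios. The ratios share members, so they are not separate observations, and Chrm1 and Chrm3 each enter 2 of the 3. Chrm1 counts were 4.38, 4.41 and 4.58 times those of Chrm2 in the control mice, against 6.26, 4.65 and 5.24 times in the PLDP mice. Relative to Chrm3 they were 3.43, 3.72 and 3.45 times in the control mice, against 4.05, 4.24 and 3.77 times in the PLDP mice. Chrm3 counts were 0.814, 0.806 and 0.794 times those of Chrm4 in the control mice, against 0.693, 0.724 and 0.787 times in the PLDP mice. The ratio of Chrm1 to Chrm4 overlapped, with 2.79, 2.998 and 2.74 against 2.80, 3.07 and 2.97. These ratios are descriptions, and no test was made of them.

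Markers of brain regions also differed between the diets, and each receptor was set beside the markers of a region where it is known to be enriched. Of 14 markers of cortical and hippocampal projection neurons, 5 were called higher and 0 lower in the PLDP mice, beside 4.91% and 3.69% of all features. The 5 were Bcl11b, Fezf2, Cux2, Rorb and Nrgn, a calmodulin-binding protein of forebrain neurons, with log2 fold changes of 0.16, 0.22, 0.14, 0.23 and 0.09. The count depended on single mice, with 2 higher without control mouse 10, 2 higher and 1 lower without PLDP mouse 26, and 3 higher without PLDP mouse 22. There was also 1 lower call without control mouse 2 or PLDP mouse 17, without the filter on low counts, and with library sizes alone. Of the other 9 markers 3 had negative values, Rasgrf2 (-0.12), Lamp5 (-0.07) and Neurod6 (-0.05). The list summed to 783 to 841 RPKM in the control mice, against 852 to 876 RPKM in the PLDP mice. Chrm1 relative to these markers, as log2 RPKM minus the mean log2 RPKM of the list, was 0.38, 0.41 and 0.46 in the control mice, against 0.47, 0.51 and 0.45 in the PLDP mice. The difference was 0.06 on the log2 scale and the groups overlapped (p = 0.2, two-sided exact permutation test, n = 3 each, for which 0.1 is the smallest p possible). Chrm3 relative to the same markers was -1.34, -1.43 and -1.28 in the control mice, against -1.49, -1.52 and -1.42 in the PLDP mice, a difference of -0.12 (p = 0.2, same exact test). The part of these markers in the higher Chrm1 level was not tested further.

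The markers of striatal projection neurons, among them Penk, Drd1, Drd2 and Adora2a, had 0 of 12 genes called in either direction (1 lower without control mouse 2). Chrm4 relative to them was 1.34, 1.15 and 1.34 in the control mice, against 1.33, 1.33 and 1.37 in the PLDP mice (log2 difference 0.07, p = 0.6, two-sided exact permutation test, n = 3 each). Control mouse 5 decided this difference, which was 0.0020 without it and between 0.05 and 0.10 without any other mouse. Markers of brainstem and spinal cord were lower in the PLDP mice, with 9 of 11 tested genes called lower and 0 higher. Of these 11, 5 were called without PLDP mouse 22 (median log2 fold change -0.51, against -0.81 with all mice), 8 without PLDP mouse 17 (median -1.26), 6 without control mouse 2, 6 without control mouse 10, and 6 with DESeq2. They summed to 61.3 to 64.6 RPKM in the control mice, against 39.0 to 50.3 RPKM in the PLDP mice, with Glra1, a glycine receptor subunit, the most abundant at a mean of 30.8 RPKM. Chrm2 did not follow them mouse by mouse. Relative to these markers, Chrm2 was 1.38, 1.57 and 1.52 in the control mice, against 1.47, 2.91 and 2.18 in the PLDP mice (log2 difference 0.70, or 0.32 relative to the summed level of the list, p = 0.3 for the former by the same exact test), and the difference was 0.34 without PLDP mouse 22 and 1.06 without PLDP mouse 17. PLDP mouse 22 had the highest Chrm2 level and the lowest mean log2 level of these markers. Some of the markers were near the floor. Hoxa3, Hoxb2 and Hoxb4 had 0.126, 0.46 and 0.50 CPM in PLDP mouse 22, against means of 0.88, 1.34 and 1.98 CPM in the control mice. In the mean log2 level each of them counts as much as Glra1. Markers of midbrain dopamine neurons had 1 of 7 genes called, Nr4a2, with a log2 fold change of 0.23. Chrm5 relative to them lay between -2.88 and -1.84 in the control mice, against between -2.92 and -1.80 in the PLDP mice (p = 0.8, same exact test).

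**Figure D4:**
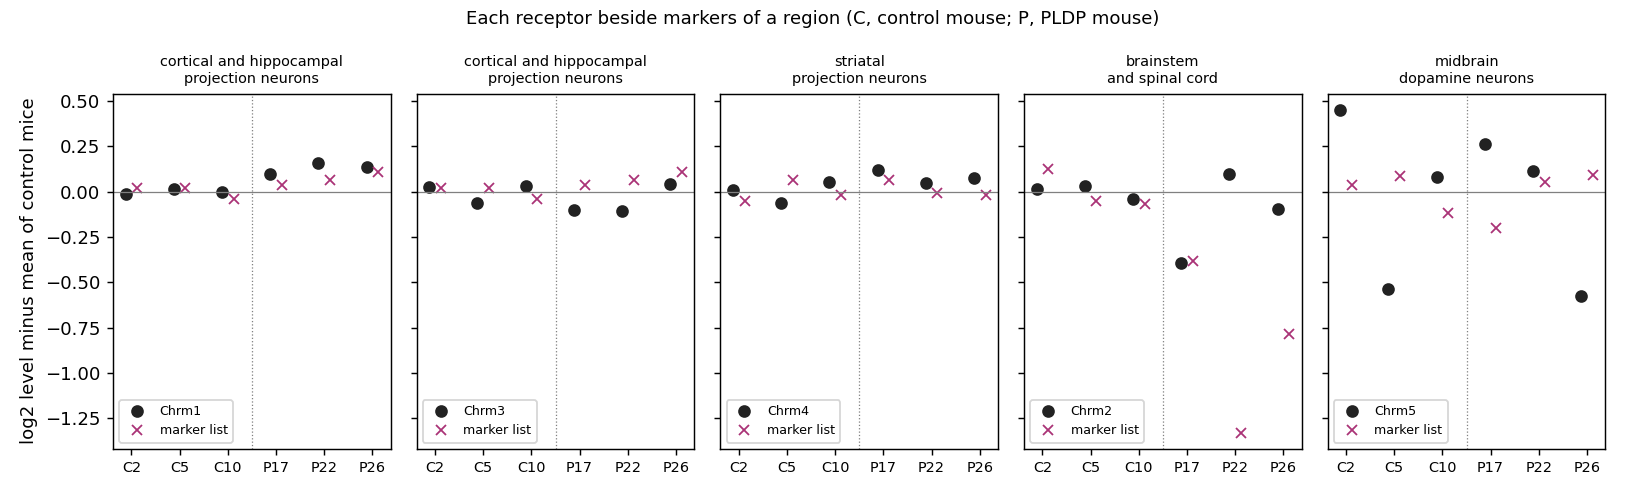
Log2 level of each receptor (black circles) and mean log2 level of markers of a region (purple crosses) in each mouse, as the difference from the mean of the control mice. Chrm1 and the cortical and hippocampal markers both lie above 0 in the 3 PLDP mice, while the brainstem and spinal cord markers are lowest in PLDP mouse 22, the mouse with the highest Chrm2 level.

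Among other cell types, oligodendrocyte markers had 3 of 7 genes called lower (among them Olig2 and Mbp) and those of endothelium and mural cells 3 of 7 higher. Without control mouse 5 these counts were 0 and 1. Summed levels were 603 to 668 RPKM in the PLDP mice and 645 to 695 RPKM in the control mice for oligodendrocytes, and 56.0 to 61.9 and 54.5 to 55.4 RPKM for endothelium and mural cells. Smooth muscle markers, relevant since Chrm2 and Chrm3 are abundant in that tissue, were low, with 3.39 to 4.29 RPKM in the control mice, against 3.94 to 4.83 RPKM in the PLDP mice. Of 4 tested, 0 were called (1 higher without control mouse 2). Markers of thalamus, cerebellum and blood had 0 called genes with all mice and the filter on low counts. Without that filter, 1 thalamus marker was called higher, and 2 cerebellum markers and 1 blood marker lower. Without PLDP mouse 17, 3 of 8 thalamus markers were called higher and 1 lower, and 2 of 9 cerebellum markers lower. Without control mouse 5, 4 of 5 blood markers and 2 cerebellum markers were called lower. Motor neuron markers had 2 of 5 lower (0 without control mouse 2 or PLDP mouse 22, 0 with DESeq2 and 1 with voom), and their summed and mean log2 levels overlapped between the diets. Those of olfactory bulb had 1 of 6 higher (5 of 6 had negative values, and without PLDP mouse 22 the calls were 0 higher and 2 lower), those of choroid plexus 2 of 5 lower (1 to 3 with a mouse left out), and those of astrocytes, microglia, meninges and neurons 1 lower each. With a mouse left out, these last counts ranged from 0 to 2 for astrocytes and neurons, 0 to 1 for microglia, and 0 to 3 for meninges, where 3 were called without control mouse 5. For astrocytes and neurons 2 were called without PLDP mouse 17. The count was 0 for neurons without control mouse 2, for astrocytes without control mouse 10 or PLDP mouse 26, for microglia without control mouse 5 or PLDP mouse 22, and for meninges without control mouse 2, control mouse 10 or PLDP mouse 22. No marker list had a gene at 0 in all mice. The part of these markers in the receptor values was not tested.

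The genes around the receptors were examined by role. Over 6 lists with 61 tested genes, 2 were called higher and 2 lower in the PLDP mice, which is 6.56% and close to the 8.6% of all features. The median log2 fold change was -0.00097 over these genes and -0.00062 over all features. In the list for supply and removal of acetylcholine, 2 of 7 genes were called lower and 0 higher (1 lower without control mouse 5 or PLDP mouse 17), and 6 of 7 had negative values, with a median log2 fold change of -0.10. Slc5a7, the choline transporter that limits acetylcholine synthesis, had 11.3, 10.7 and 11.7 CPM in the control mice, against 6.78, 6.66 and 8.97 CPM in the PLDP mice. The groups were apart, with every PLDP mouse lower (log2 fold change -0.60, SE 0.12, adjusted p = 0.0785 by the quasi-likelihood test of edgeR). Prima1, which anchors acetylcholinesterase in neuronal membranes, had 17.1 ± 2.69 CPM in control and 14.6 ± 0.62 CPM in PLDP mice (SD, n = 3 each), and its log2 fold change was -0.23 (adjusted p = 0.539 from the same edgeR test). Chat, the enzyme that makes acetylcholine, and Slc18a3, its vesicular transporter, had log2 fold changes of 0.03 and -0.10 and overlapped between the diets. Ache, the acetylcholinesterase, had the highest level of the list (20.2 RPKM) and a log2 fold change of -0.09 with overlapping groups. The markers of brainstem and spinal cord, which hold cholinergic neurons, were also lower (9 of 11 called). Those of motor neurons had 2 of 5 called lower, with overlapping levels and 0 calls with DESeq2. The part of these markers in this list was not tested.

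Downstream of Chrm1, Chrm3 and Chrm5, 1 of 14 Gq proteins and effectors was called higher and 0 lower, and 12 of 14 had positive values with a median log2 fold change of 0.03. Gnaq and Gna11, the G proteins themselves, had log2 fold changes of 0.04 and 0.00026, and Pip5k1c, the gene of the list with the highest level (75.2 RPKM), of 0.07. Downstream of Chrm2 and Chrm4, 0 of 12 Gi/o proteins and adenylyl cyclases were called, with Adcy1 at the highest level (65.7 RPKM) and a log2 fold change of 0.01. Of 7 tested potassium channel genes that muscarinic receptors regulate, Kcnj6, a subunit of the G protein-gated channels, was called higher. Its level was 53.6 ± 2.27 CPM in control and 62.2 ± 3.94 CPM in PLDP mice (SD, n = 3 each), with a log2 fold change of 0.21 (adjusted p = 0.261 from the same edgeR test). Kcnj9, another subunit of these channels and the gene of the list with the highest level (38.3 RPKM), had a log2 fold change of 0.02. None of 11 receptor kinases, arrestins and RGS proteins was called, and Rgs4, a GTPase activator for Gq and Gi/o with the highest level (67.7 RPKM), had a log2 fold change of -0.01. Of 10 nicotinic subunits 0 were called either (1 higher and 1 lower without control mouse 5, and 1 lower without PLDP mouse 26). Of these subunits 8 had negative values (median log2 fold change -0.08, or -0.22 without control mouse 2 and -0.02 without PLDP mouse 17). Their mean log2 RPKM was lower in every PLDP mouse than in any control mouse, by 0.12 between the means (-0.04 in control and -0.17 in PLDP mice). In sum the groups overlapped. The subunits summed to 22.1 to 23.97 RPKM in the control mice, against 22.1 to 23.7 RPKM in the PLDP mice, led by Chrnb2 at 9.90 RPKM. Without PLDP mouse 17 the counts over the 6 lists were 8 higher and 1 lower. The higher ones were 4 Gq proteins and effectors, 2 Gi/o proteins and adenylyl cyclases, and 2 potassium channel genes.

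**Figure D5:**
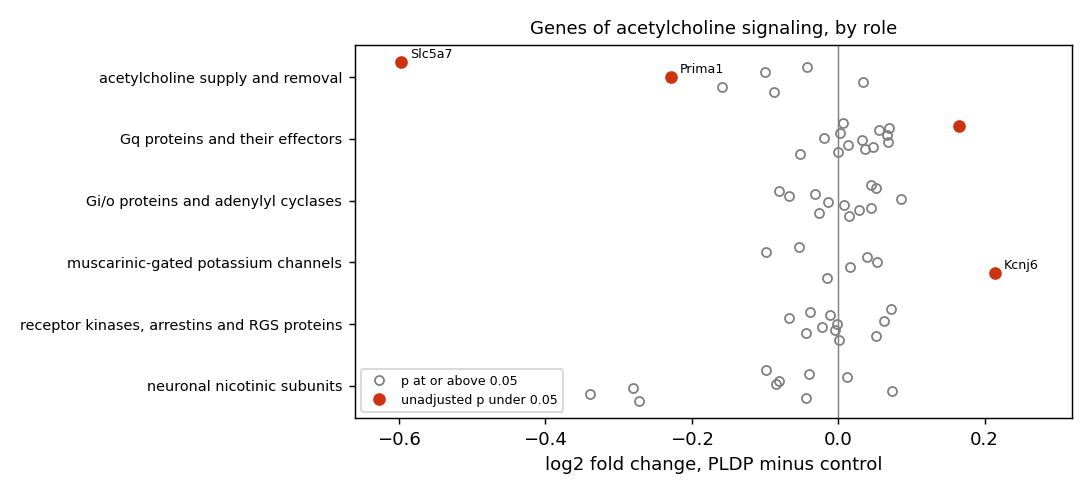
Log2 fold change between the diets of the 61 tested genes around the muscarinic receptors, 1 circle per gene, by role (filled red, unadjusted p under 0.05, named where the text describes the gene). Slc5a7 at -0.60 and Prima1 at -0.23 lie on the low side, Kcnj6 at 0.21 on the high side, and most other genes lie near 0.

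The genes whose values over the 6 mice lay closest to each receptor were found among 11516 named genes with at least 5 CPM (11517 for Chrm5, which is itself below that level), by the root mean square distance of log2 CPM after centering each gene. For Chrm1, whose own spread was 0.069, these were Sorbs2, an actin-binding adaptor, Mapk1ip1l and Larp1, an RNA-binding protein, at distances of 0.0067, 0.0093 and 0.011. For Chrm4 (spread 0.057) they were Sowaha, Snrpa, a spliceosome component, and Cdh22, a cadherin, at 0.010 to 0.014. For Chrm3 (spread 0.063) they were Ddx10, Dnaja4 and Fam133b at 0.014 to 0.018. For Chrm2 (spread 0.16) they were Dck, Tob1 and Bach1 at 0.037 to 0.046. Like Chrm2 itself, each had its lowest level in PLDP mouse 17, which the choice by closeness to Chrm2 favors. For Chrm5 (spread 0.39) the closest were the hemoglobin genes Hbb-bs and Hbb-bt and Il11ra2, at 0.16 to 0.18, a poorer match. These are descriptions over 6 mice. No member was among the closest genes of another.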

How the data were processed

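Gene expression in whole brain was measured by RNA-seq in 3 control and 3 PLDP mice, with a strand-specific kit for polyadenylated RNA. The authors deposited raw read counts per gene, 1 file per mouse, without normalization. The submitters' processing notes name cutadapt 2.9, HISAT2 2.2.0, featureCounts 2.6.0 and DESeq2 1.6.3. The annotation, the strand setting and the treatment of shared reads are not given in the sources used here. The files also hold 5320 numbered features without a position, and reads of a named gene assigned to these would be missed.

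Symbols, positions and lengths were taken from GENCODE M21 (GRCm38), in which 54777 of 55034 Ensembl identifiers were found. The test used edgeR 4.0.16 under R 4.3.3 (filterByExpr with a minimum count of 10 and minimum total of 15, TMM, glmQLFit and glmQLFTest, diet as the only term). Calls were made at an unadjusted p under 0.05, the study's threshold, with Benjamini-Hochberg adjusted values over all features. Standard errors are the log2 fold change divided by the root of F. Coding sequences were aligned with MAFFT 7.526. Plots were made with matplotlib 3.10.9 in Python 3.11.15.

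The members, the gene lists (written from general knowledge) and the tests were chosen with earlier results of these data known. Named genes are the members, in each role list the called genes and the gene with the highest RPKM, genes overlapping a member, and the 3 closest genes of each member. Any other gene is named as background for a list, with its value already known. Some genes that this rule names are not reported here. Alternatives were no filter, at least 10 counts in every mouse, other scaling factors, DESeq2 1.42.0, limma 3.58.1 voom, edgeR's exact test, other gene lengths and leaving out each mouse. The fit was tested on simulated data. Nothing in the labels says more of the mice than that they are separate animals. With 3 mice in each group, precision is limited by their spread and, for Chrm5, also by counts.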

Additional observations from a re-analysis of the deposited data

How the results depend on the processing

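No paired analysis was possible because the diets share no mouse numbers. The log2 fold changes of the 5 members kept their direction and their side of the threshold under all 8 other filters, scalings and tests, with 0.13 to 0.14 for Chrm1, -0.13 to -0.11 for Chrm2, -0.06 to -0.05 for Chrm3, 0.08 to 0.09 for Chrm4 and -0.07 to -0.03 for Chrm5. With each mouse left out, they lay between 0.12 and 0.15 for Chrm1, -0.24 and 0.0091 for Chrm2, -0.10 and -0.03 for Chrm3, 0.05 and 0.11 for Chrm4, and -0.28 and 0.19 for Chrm5. The value of Chrm5 relative to dopamine neuron markers lay between -0.36 and 0.26, and turned without control mouse 2, control mouse 10 or PLDP mouse 26. DESeq2 called 926 features in place of 1598, and 1 gene of the pathway lists lower in place of 2. With a mouse left out, the pathway lists had 2 to 8 genes called higher and 1 to 3 called lower, the 8 higher and the single lower call coming without PLDP mouse 17. The 6 features with an adjusted p under 0.05 became 180 without a filter, 24 with DESeq2, 65 with the exact test, 3 with voom, 1 with library sizes alone and 182 without PLDP mouse 17, and leaving out another mouse gave 0 to 14. The cause was not tested. The difference in the Gi/o share was -0.51 percentage points, and between -0.74 and -0.23 with each mouse left out. It was -0.36 with the longest transcript as length, -0.07 with the shortest full-coding transcript, a length chosen after seeing the data, and -1.26 without a length correction, where the groups did not overlap. That of the summed level was 2.63 RPKM, or 2.58 and 3.07 with these lengths, and 9.71 CPM without length. For Chrm5, the coefficients of variation of 32.7% in control and 28.1% in PLDP mice include the part from counting. At 19 to 43 counts per mouse, counting alone gives 17.4% and 17.6%. With 3 mice in each group these values are too imprecise to say which source limits Chrm5 more.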

Other observations

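Among the channel genes that muscarinic receptors regulate, Kcnj3, a subunit of the G protein-gated potassium channel, is listed at 0 in all 6 mice, while its partner subunits Kcnj6 and Kcnj9 had means of 53.6 and 163.2 CPM in the control mice. The value of Kcnj3 in these files therefore gives no level for this gene.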
